A study of Mus musculus with 12 samples.

Results

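The Ebf genes, Ebf1, Ebf2, Ebf3 and Ebf4, encode the 4 early B cell factors of the mouse, a family of DNA-binding transcription factors. Chromatin regions were counted as belonging to a member when they overlapped its gene body or the 200 kb on either side (GENCODE gene models on the mm10 build), a rule that used positions and not signal. The rule found 73 regions, namely 45 of the 31617 H3K27ac regions and 28 of the 28047 H3K27me3 regions of the tables. For H3K27ac they numbered 14 at Ebf1, 11 at Ebf2, 11 at Ebf3 and 9 at Ebf4, and for H3K27me3 they numbered 8, 6, 9 and 5. CUT&RUN, in which an antibody brings a nuclease to a histone mark so that the DNA around the mark is released and sequenced, was performed on cultured mouse mesenchymal stem cells (MSCs). The cells came from young mice of 3 to 5 months or old mice of 18 to 22 months, and all of them were kept at 2% oxygen in medium with 10% serum. Each group held 3 libraries per mark, giving 12 libraries, and the labels gave no strain, sex or genotype and did not say whether a sample was 1 animal or a pool of animals. P-values therefore measured the spread between these samples.

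EBF proteins bind DNA as dimers and share a DNA-binding domain and a helix-loop-helix dimerisation domain. Ebf1 is best known as a determinant of B cell identity, and in the bone marrow stroma Ebf1 and Ebf3 are known to maintain the niche cells that support blood formation. Ebf2 marks brown and beige fat precursors, and Ebf4 is the least studied member. H3K27ac, acetylation of lysine 27 of histone H3, marks active promoters and enhancers, whereas H3K27me3, trimethylation of the same lysine, is deposited by Polycomb and marks silenced genes. A lysine carries either mark but not both, so regions that hold both marks reflect different histones, alleles or cells.

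The genes are long. Ebf1 (ENSMUSG00000057098.14) spans chr11:44617317-45008091 on the plus strand, which is 390.8 kb. Ebf2 (ENSMUSG00000022053.13) spans chr14:67233292-67430918 on the plus strand, 197.6 kb, and Ebf3 (ENSMUSG00000010476.14) spans chr7:137193673-137314445 on the minus strand, 120.8 kb. Ebf4 (ENSMUSG00000053552.14) spans chr2:130295169-130370481 on the plus strand, 75.3 kb. The flanks also held other protein-coding genes, 2 at Ebf1 (Ublcp1 and Rnf145, both upstream), 1 at Ebf2 (Ppp2r2a), 3 at Ebf3 (Mgmt, 9430038I01Rik and Glrx3) and 13 at Ebf4.

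The promoters differed in base composition, and they are shown because the 3 genes carried different marks there. RefSeq promoters (GRCm38.p6, the assembly of mm10), which run from 250 bases before to 50 bases after a start, were matched for 3 of the 4 members, with 4 entries. Each is printed 5′ to 3′ on the strand of the gene, with CpG dinucleotides, the target of DNA methylation and a feature of Polycomb-bound promoters, in capitals.
Ebf1, chr11:44617850-44618149, plus strand: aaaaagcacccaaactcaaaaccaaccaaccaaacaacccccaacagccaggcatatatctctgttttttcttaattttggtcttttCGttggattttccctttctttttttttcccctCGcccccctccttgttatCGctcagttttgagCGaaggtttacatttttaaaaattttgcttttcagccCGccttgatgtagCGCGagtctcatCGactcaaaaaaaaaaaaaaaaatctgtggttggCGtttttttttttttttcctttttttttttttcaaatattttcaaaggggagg
Ebf1, chr11:44619978-44620277, plus strand: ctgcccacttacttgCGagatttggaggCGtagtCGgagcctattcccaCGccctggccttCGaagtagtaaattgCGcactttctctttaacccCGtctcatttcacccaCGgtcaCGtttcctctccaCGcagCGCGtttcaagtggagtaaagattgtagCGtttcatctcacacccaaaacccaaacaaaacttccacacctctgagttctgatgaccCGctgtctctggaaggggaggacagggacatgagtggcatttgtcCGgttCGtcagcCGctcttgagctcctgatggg
Ebf3, chr7:137314396-137314695, minus strand: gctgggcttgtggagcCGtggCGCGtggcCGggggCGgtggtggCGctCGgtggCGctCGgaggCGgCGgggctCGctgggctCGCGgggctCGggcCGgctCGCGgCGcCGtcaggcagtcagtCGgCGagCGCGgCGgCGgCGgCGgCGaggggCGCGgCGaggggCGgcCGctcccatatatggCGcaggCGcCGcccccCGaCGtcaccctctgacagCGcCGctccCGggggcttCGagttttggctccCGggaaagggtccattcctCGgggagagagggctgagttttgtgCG
Ebf4, chr2:130295689-130295988, plus strand: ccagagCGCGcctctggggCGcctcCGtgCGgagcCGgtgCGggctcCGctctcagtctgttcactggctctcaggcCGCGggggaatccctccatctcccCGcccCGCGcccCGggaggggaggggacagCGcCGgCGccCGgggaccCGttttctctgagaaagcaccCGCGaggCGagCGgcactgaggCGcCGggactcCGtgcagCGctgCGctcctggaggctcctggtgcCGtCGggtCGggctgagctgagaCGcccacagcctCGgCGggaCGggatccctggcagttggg
The first Ebf1 promoter held 9 CpGs and was 36.7% G or C, and the second held 17 CpGs at 53.0%. The Ebf3 promoter held 46 CpGs at 77.0% G or C, more CpGs than 98.4% of the 32851 promoters of the table, of which the median held 7. The Ebf4 promoter held 35 CpGs at 74.3%, more than 93.0% of promoters. Both Ebf1 promoters lay in an H3K27ac region with no H3K27me3 region over them, the Ebf3 promoter lay in regions of both marks, and the Ebf4 promoter lay in an H3K27me3 region alone.

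The palindrome that EBF dimers bind was searched as TCCCNNGGGA, which reads the same on both strands, where N is any base. None of the 4 promoter entries held it, and 297 of the 32851 promoters did (0.904%). Within H3K27ac regions it occurred 0.213 times per 10 kb at Ebf1, 0.167 at Ebf2, 0.163 at Ebf3 and 0.0587 at Ebf4, against 0.240 over all H3K27ac regions. Within H3K27me3 regions the frequencies were 0.251, 0.222, 0.216 and 0.269 per 10 kb, against 0.234 over all regions. A match is a description of the letters and not evidence of binding. The following matches are printed with 10 bases on each side and the palindrome in capitals, because the first pair lay where a short H3K27ac region fell inside a broad H3K27me3 region and the last lay at the start of Ebf4.
Ebf1 downstream flank, chr11:45070573-45070602, plus strand: ataagtcttcTCCCAGGGGAtacagcacct
Ebf2 gene body, chr14:67258999-67259028, plus strand: gccccgacttTCCCCAGGGAtgcagtgtgc
Ebf4 gene body, chr2:130295227-130295256, plus strand: cggctcccgcTCCCCAGGGAgcggcggcgg

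Signal is given in reads-per-million units (RPM), the reads of a region scaled to the size of its library and then between the libraries of a mark. The H3K27ac libraries held 2750953 to 5541429 reads and the H3K27me3 libraries 3622108 to 9947515 reads, and old replicate 2 was the shallowest of both marks. In young replicates 1 to 3, 62.3, 66.6 and 66.6% of the H3K27me3 reads lay in regions. In old replicates 1 to 3 the shares were 60.8, 59.6 and 53.8%, each below every young share. This difference between libraries cannot be told apart from age. For H3K27ac the shares of the groups overlapped. The median region held 12 to 30 reads per H3K27ac library and 28 to 79 per H3K27me3 library, so the precision of the short Ebf regions was limited by depth. The cells carried the marks of stroma. H3K27ac lay over the start of 10 of 10 stromal markers (among them Pdgfra, Pdgfrb, Prrx1 and Col1a1), and H3K27me3 over none of them. Of 5 blood markers only Csf1r had H3K27ac at its start, of 7 B-lineage markers only Vpreb1 had H3K27ac, while Pax5, Cd79b, Igll1 and Rag1 were among those with H3K27me3, and of 3 endothelial markers only Pecam1 had H3K27ac and 2 had H3K27me3.

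The balance of the marks set the 4 genes apart. H3K27ac regions covered 99.9% of the Ebf1 gene body, in 2 domains of 249.5 and 154.5 kb, and no H3K27me3 region touched it. Ebf2 showed the opposite state, with H3K27me3 over 98.99% of its body and H3K27ac over 6.43%, all of it within H3K27me3 regions. Ebf4 was likewise covered by H3K27me3 over 96.7% of its body and by H3K27ac over 1.99%. Ebf3 was mostly free of marks: 20.7% of its body had H3K27ac, 13.6% had H3K27me3 and 78.1% had neither.

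**Figure D1:**
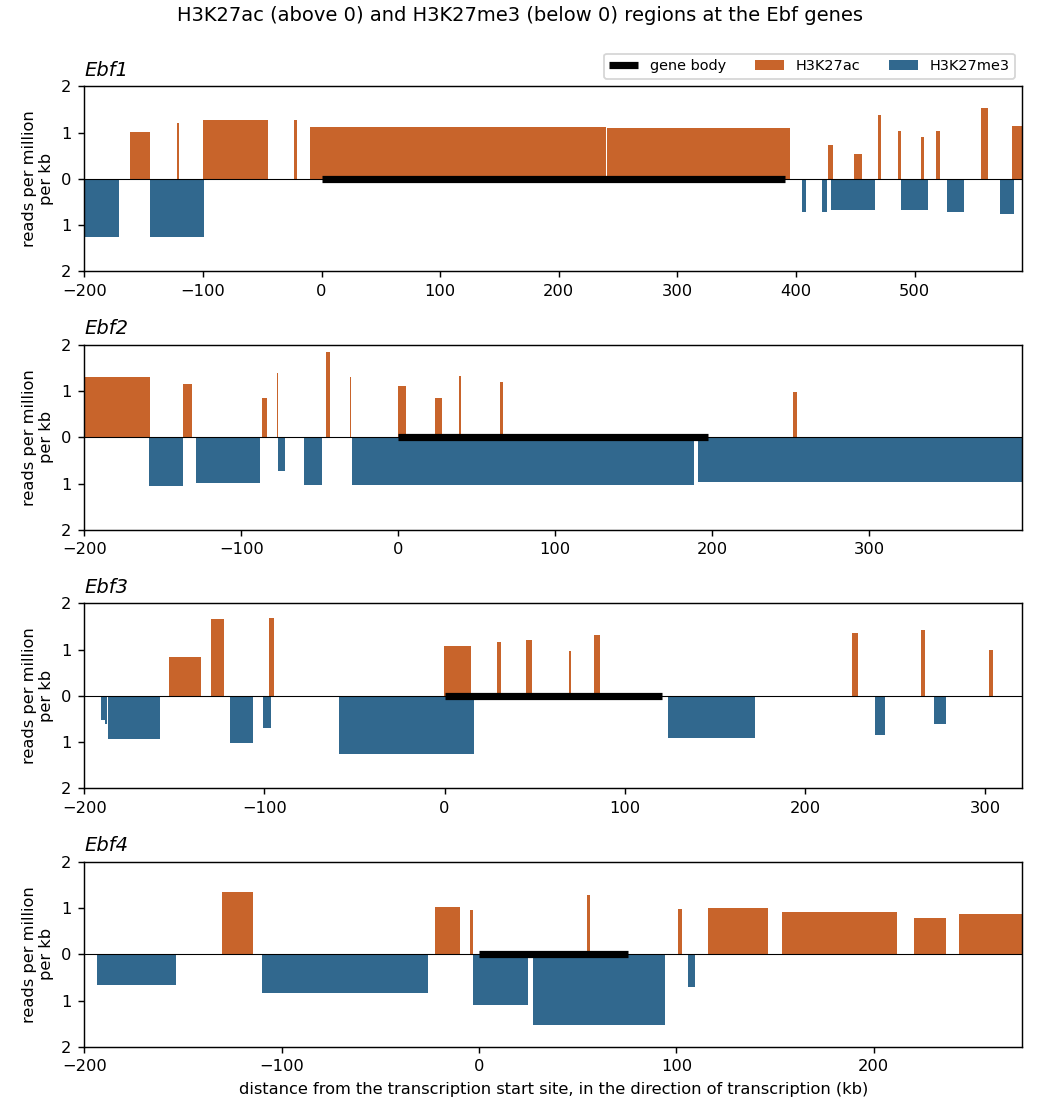
H3K27ac regions (bars above 0) and H3K27me3 regions (bars below 0) at each Ebf gene, with distance from the transcription start site in kb on the horizontal axis, drawn in the direction of transcription, and mean signal of the 6 libraries of the mark in RPM per kb on the vertical axis. The black line is the gene body, which H3K27ac covered to 99.9% in Ebf1 and H3K27me3 covered to 98.99% in Ebf2 and 96.7% in Ebf4.

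Among long genes such coverage was uncommon but not particular to the family. Of the 3395 protein-coding genes of at least 75 kb, the median had 9.87% of its body under H3K27ac and 1.56% under H3K27me3, and 692 had no H3K27ac and 1519 no H3K27me3. In H3K27ac coverage 113 of them (Ebf1 included) reached the share of Ebf1, and by covered length Ebf1 ranked 8 among all 21951 protein-coding genes. In H3K27me3 coverage 90 long genes reached the share of Ebf2 and 121 that of Ebf4.

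The marks also differed in where along a gene they lay. When each body was divided into 10 equal parts from the start, Ebf1 had H3K27ac over at least 98.7% of every part. Ebf2 had H3K27me3 over 100% of the first 9 parts and 89.9% of the last, whereas its H3K27ac was found only in the first 4 parts, at 26.4%, 24.4%, 3.46% and 10.1%. In Ebf3 the first 12.1 kb was covered completely by both marks, H3K27me3 reached 36.2% of the second part and none beyond, and H3K27ac recurred in short regions up to the eighth part. In Ebf4 the only H3K27ac of the body was 1 region of 1.5 kb in the eighth part.

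The flanks did not follow the bodies. At Ebf1, the 200 kb downstream were 46.8% H3K27me3 and 20.3% H3K27ac, and the 200 kb upstream were 37.6% H3K27me3 and 42.9% H3K27ac. The whole 200 kb downstream of Ebf2 lay under H3K27me3, and the 54.1% of its upstream flank under that mark gave way to a 90.5 kb H3K27ac domain over the starts of Bnip3l and Ppp2r2a. The downstream flank of Ebf4, which holds the starts of Pced1a, Vps16, Ptpra and Mrps26, was 69.7% H3K27ac and 11.3% H3K27me3, while its upstream flank was 63.8% H3K27me3. At Ebf3 H3K27me3 covered 54.0% upstream and 30.3% downstream, and H3K27ac covered 14.3% and 4.0%.

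The density of a mark was compared per kb of region. H3K27ac in body regions was 1.07 ± 0.237 RPM per kb at Ebf2, 1.12 ± 0.0118 at Ebf1, 1.14 ± 0.250 at Ebf3 and 1.28 ± 0.752 at Ebf4 (SD, n = 6 libraries), and no neighbours in this order differed beyond their spread. H3K27me3 was 0.991 ± 0.0878 RPM per kb at Ebf2, 1.25 ± 0.164 at Ebf3 and 1.41 ± 0.141 at Ebf4. The libraries of Ebf3 ranged from 1.05 to 1.45 and overlapped both those of Ebf2 (0.835 to 1.06) and those of Ebf4 (1.16 to 1.54), whereas Ebf2 and Ebf4 did not overlap.

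The main comparison asked whether age changed the marks at these genes. Every region of a table entered 1 limma fit, p-values were adjusted over the whole table, and regions with an adjusted p under 0.05 were called. Because the cells were profiled in bulk, fewer cells with a mark and less of the mark per cell cannot be told apart. For H3K27ac 0 of the 45 Ebf regions were called, against 0.0822% of all regions, with 9 at an unadjusted p under 0.05 (9.6% of all regions). Counts of reads tested with edgeR called 1 of the 45 and with DESeq2 called 0. For H3K27me3 1 of the 28 Ebf regions was called, against 0.488% of all regions, and 7 had an unadjusted p under 0.05 (13.9% of all regions). The call was of a region that was higher in old MSCs, a direction in which 0.082% of all H3K27me3 regions were called.

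Counted without a threshold, 28 of the 45 H3K27ac regions were lower and 17 higher in old MSCs, and 50.4% of all regions were lower. The median log2 fold change of old against young was -0.08, against -0.003 over all H3K27ac regions. Of the 28 H3K27me3 regions 10 were lower and 18 higher, where 48.6% of all regions were higher, with a median of 0.09 against -0.008. On the signal as deposited, without scaling, the median of all regions moved by -0.11 for H3K27ac and -0.12 for H3K27me3, and the splits became 35 lower and 10 higher for H3K27ac and 14 and 14 for H3K27me3. In the libraries themselves, all old values lay below all young values in 7 H3K27ac regions (background 7.42%) and above them in 1 (7.09%). For H3K27me3 this held for 4 regions below (10.6%) and 6 above (8.56%). Of these, 5 of the 7 lower H3K27ac regions and 5 of the 6 higher H3K27me3 regions lay downstream of Ebf1.

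**Figure D2:**
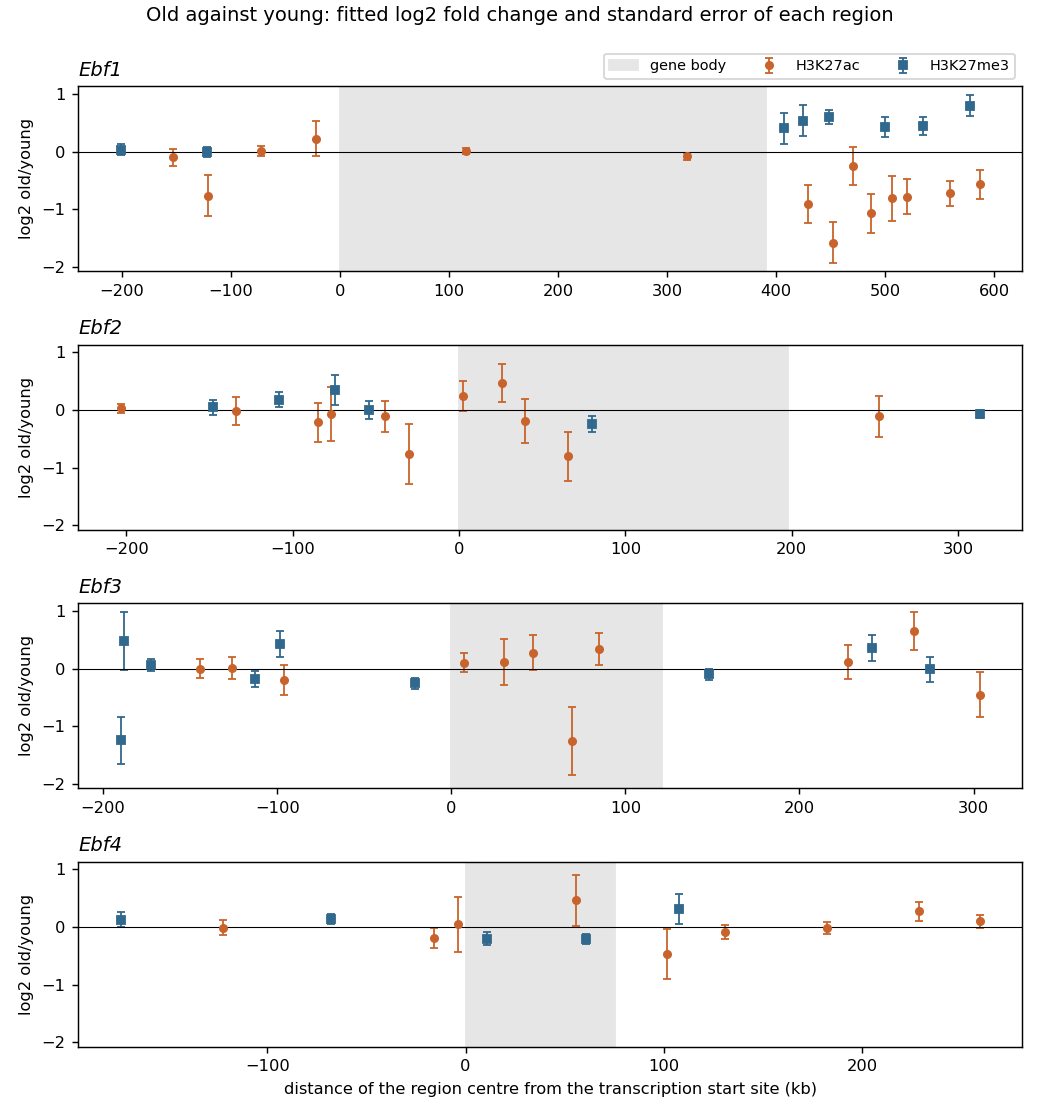
Fitted log2 fold change of old against young MSCs (vertical axis, limma, n = 3 libraries per group) of every region of the 4 genes, with its standard error as a bar, by the distance of the region centre from the transcription start site in kb (horizontal axis). Downstream of the Ebf1 body, shaded in grey, the 8 H3K27ac regions all lie below 0 and the 6 H3K27me3 regions all lie above 0, while the body regions of Ebf1 lie at 0.01 and -0.08.

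Ebf1 kept its H3K27ac domain at both ages. Summed over the gene body, H3K27ac was 456, 458 and 451 RPM in young replicates 1 to 3 and 445, 451 and 450 RPM in old replicates 1 to 3. All 6 values were close and the groups overlapped. The means were 455 ± 3.47 and 449 ± 3.51 RPM (SD, n = 3), a log2 fold change of -0.02 with a standard error (SE) of 0.05 and an adjusted p of 0.935 over 13267 gene bodies (limma). Of the 2 domains, the one over the start, chr11:44608001-44857500, was at 0.01 on the log2 scale (SE 0.05, adjusted p = 0.964), and that over the 3′ end, chr11:44858001-45012500, was at -0.08 (SE 0.06, adjusted p = 0.735). The sign for the first domain turned to -0.11 on the signal as deposited, within the shift of all regions. Upstream of the gene the sums were also alike, at 93.7 ± 2.10 and 92.8 ± 5.41 RPM for H3K27ac and 132 ± 8.29 and 134 ± 8.81 RPM for H3K27me3.

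In the 200 kb after the end of Ebf1, which hold no start of another protein-coding gene, the summed signal of each mark separated young from old libraries. Of the single regions there, 0 of 8 for H3K27ac and 1 of 6 for H3K27me3 were called. The 8 H3K27ac regions there, each of 2.0 to 9.5 kb, were all lower in old MSCs, and the 6 H3K27me3 regions were all higher. Their summed H3K27ac was 52.4, 46.7 and 41.4 RPM in young replicates 1 to 3 and 34.1, 18.5 and 31.1 RPM in old replicates 1 to 3. Every old library lay below every young one, with the least in old replicate 2. The old mean of 27.9 ± 8.28 RPM was 0.595 of the young mean of 46.9 ± 5.49 RPM (SD, n = 3), a log2 difference of -0.79. Summed H3K27me3 was 47.9, 57.7 and 51.8 RPM in the young libraries and 68.1, 97.8 and 69.7 RPM in the old libraries. Every old library lay above every young one, with the most in old replicate 2. The old mean of 78.6 ± 16.7 RPM was 1.50 times the young mean of 52.5 ± 4.96 RPM, a log2 difference of 0.57.

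**Figure D3:**
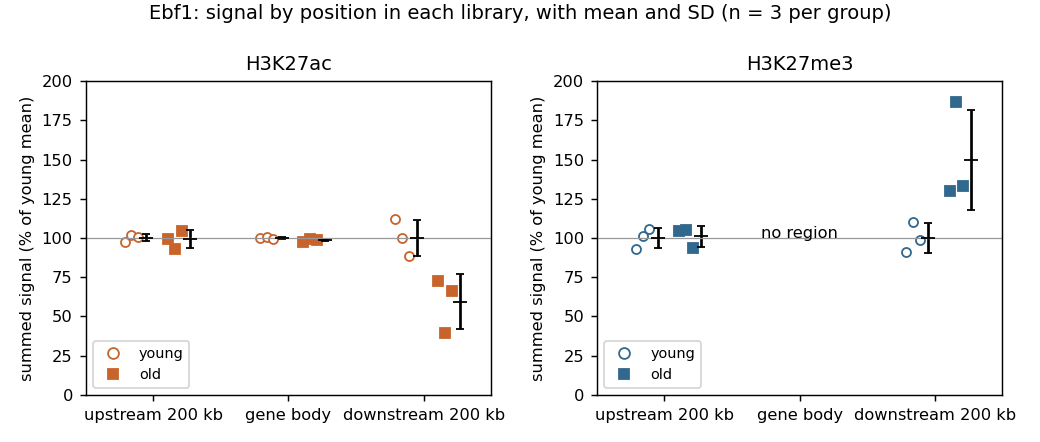
Signal of the Ebf1 regions by position, for H3K27ac (left) and H3K27me3 (right), summed per library and given as a percentage of the mean of the young libraries, with young libraries as open circles, old libraries as filled squares, and mean and SD as black bars (n = 3). The groups coincide upstream and in the body and are separate downstream, where the old means were 0.595 of the young mean for H3K27ac and 1.50 for H3K27me3.

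The flank was singled out after its values were seen, so no p-value is given for its sums. The counts of directions and the values without 1 library reuse the values that singled the flank out. Old replicate 2, the shallowest library of each mark, contributed to the size of both differences. Without it the log2 difference was -0.52 for H3K27ac and 0.40 for H3K27me3, still with 8 of 8 regions lower and 6 of 6 higher, and all 8 and all 6 kept their direction without any other single library and on the signal as deposited. The other old libraries showed the pattern singly. In old replicate 1 the sum was 0.727 of the young mean for H3K27ac, with 7 of 8 regions lower, and 1.30 for H3K27me3, with 5 of 6 higher, and in old replicate 3 it was 0.663 with 8 of 8 lower and 1.33 with 6 of 6 higher.

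The region called was chr11:45047001-45084000, an H3K27me3 region of 37.0 kb that begins 38.9 kb beyond the end of Ebf1. It held 18.0, 22.6 and 19.0 RPM in young replicates 1 to 3 and 28.4, 35.5 and 26.9 RPM in old replicates 1 to 3. All old values exceeded all young values. The means were 19.9 ± 2.46 and 30.3 ± 4.61 RPM, a log2 fold change of 0.60 (SE 0.13, adjusted p = 0.0400, limma). The adjusted p crossed 0.05 in several settings, to 0.260, 0.0961 and 0.213 without young replicates 1, 2 and 3, to 0.0554 without old replicate 1 and to 0.0587 on the signal as deposited, whereas it was 0.0355 without old replicate 2. Over all settings tried it ranged from 0.00875 to 0.260, with the region higher in old MSCs in each.

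Inside this region lay an H3K27ac region that the deposited table lists for young cells only, chr11:45066001-45072500, 6.5 kb long and one of the sites with an EBF palindrome printed above. Its H3K27ac was 5.72, 4.62 and 5.26 RPM in the young libraries and 2.99, 0.786 and 1.53 RPM in the old libraries. All old values lay below the young values, and the fewest reads in a library were 2. The log2 fold change was -1.58 (SE 0.35), the lowest of the 45 H3K27ac regions, with an adjusted p of 0.0555 that missed the threshold. The adjusted p was below 0.05 in edgeR on reads (0.0277), on the signal as deposited (0.00333), with a block for replicate number (0.0258), with a pseudocount of 2 (0.0319) and without old replicate 1 (0.0114), was 0.468 without young replicate 1 and 0.203 without old replicate 2, and reached 0.937 in DESeq2, the highest of all settings tried.

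The other regions of this flank that the rule named were picked for a small p, so separate groups in them are no further support. Of all regions of the flank, the groups were separate in 5 of 8 for H3K27ac and in 5 of 6 for H3K27me3. H3K27me3 at chr11:45189001-45201000, 12 kb long, was 5.73, 6.74 and 7.32 RPM in the young and 9.82, 15.4 and 10.3 RPM in the old libraries. Its groups were separate, with a log2 fold change of 0.80 (SE 0.18, adjusted p = 0.0509), and the adjusted p ranged from 0.0174 in edgeR to 0.274 over the settings tried. H3K27ac at chr11:45173501-45179000, the densest H3K27ac region at Ebf1 with 1.52 RPM per kb, was 10.5, 10.96 and 9.87 RPM in the young and 6.58, 4.72 and 7.64 RPM in the old libraries. Its groups were separate too, with a log2 fold change of -0.73 (SE 0.21, adjusted p = 0.180). The 6 H3K27me3 regions had log2 fold changes from 0.40 to 0.80 and the 8 H3K27ac regions from -1.58 to -0.25.

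The first regions beyond the 200 kb limit had the same signs. The next H3K27me3 region outward, chr11:45232501-45247000, which begins 24.4 kb outside the limit, had means of 7.00 RPM in young and 12.4 RPM in old MSCs (log2 fold change 0.76, SE 0.20, adjusted p = 0.0849). The next H3K27ac region, chr11:45228001-45238500, had means of 10.8 and 8.94 RPM (log2 fold change -0.30, SE 0.20, adjusted p = 0.676). On the upstream side the next regions had log2 fold changes of 0.12 for H3K27ac and -0.02 for H3K27me3.

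Sums over a downstream flank were computed in the same way for every protein-coding gene, as a description. Of 1628 other genes with at least 5 regions of each mark in the 200 kb after their end, 3 had an H3K27ac difference as low as that of Ebf1 and 2 an H3K27me3 difference as high. The same 2, Dcn and C030005K15Rik, met both conditions. The median log2 difference of these genes was 0.05 for H3K27ac and -0.02 for H3K27me3, and 361 of them had lower H3K27ac together with higher H3K27me3. Flanks of neighbouring genes share regions, so these genes are not independent. The Ebf1 flank was singled out for the values ranked here, so its place among the other genes is no separate support.

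The remaining named regions of Ebf1 lay upstream and did not pass the test. The nearest H3K27me3 region, chr11:44472501-44518500, which reaches the start of Rnf145, held 58.0 ± 1.81 RPM in young and 57.9 ± 4.73 RPM in old MSCs (log2 fold change -0.01, SE 0.09, adjusted p = 0.985). The densest, chr11:44387001-44446500 over the start of Il12b, held 74.4 ± 6.57 and 75.9 ± 5.01 RPM (log2 fold change 0.03, SE 0.09, adjusted p = 0.916). A 2.0 kb H3K27ac region 119.8 kb before the start was not named by the rule and is given because its groups did not overlap. It was lower in old MSCs, at 3.07 ± 0.351 RPM in young and 1.75 ± 0.579 RPM in old (log2 fold change -0.77, SE 0.36, adjusted p = 0.497, limma).

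At Ebf2 the Polycomb domain persisted in old MSCs, with 1 library apart. The H3K27me3 region over the start, chr14:67204001-67422000, is 218.0 kb long and held 243, 236 and 237 RPM in young replicates 1 to 3 and 258, 154 and 209 RPM in old replicates 1 to 3. Old replicate 1 was the highest of all libraries and old replicate 2 the lowest, so the old group spread over the whole range. The log2 fold change of -0.24 (SE 0.14, adjusted p = 0.463) became -0.04 without old replicate 2. The second body region, chr14:67424001-67668500, was 244.5 kb long, lay mostly beyond the gene and was lower in old MSCs without overlap but by little, at 241 ± 7.39 and 230 ± 4.12 RPM (log2 fold change -0.07, SE 0.07, adjusted p = 0.738). Counted whole, as in every gene-body sum, they gave 480 ± 7.60 and 437 ± 51.8 RPM (log2 fold change -0.14, SE 0.08, adjusted p = 0.398 over 7902 gene bodies). This sum was at -0.05 without old replicate 2, at -0.23 without old replicate 1 and at -0.24 when only regions with most of their length in the body were counted.

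The H3K27ac library of the same number, old replicate 2, had the most H3K27ac at the Ebf2 start. There chr14:67233001-67238500, 5.5 kb, held 4.90, 6.92 and 4.61 RPM in young and 5.78, 9.44 and 4.84 RPM in old replicates 1 to 3. The groups overlapped, and the log2 fold change of 0.24 (SE 0.25, adjusted p = 0.816) was -0.03 without old replicate 2. Body H3K27ac was 13.3 ± 2.29 and 14.4 ± 4.18 RPM (log2 fold change 0.09, SE 0.18, adjusted p = 0.909), a direction that turned to -0.13 without old replicate 2. The short H3K27ac regions at chr14:67298001-67300000 and chr14:67202501-67203500 had the smallest p-values among the H3K27ac regions of Ebf2, with log2 fold changes of -0.80 (SE 0.42, adjusted p = 0.558) and -0.77 (SE 0.52, adjusted p = 0.685) and as few as 1 read in a library, and when 1 library was left out these values ranged from -1.27 to -0.18 and from -1.31 to -0.40. The densest one, chr14:67187501-67190000, with 1.85 RPM per kb, held 4.75 ± 0.150 and 4.49 ± 1.30 RPM. Upstream, H3K27me3 was 38.3 ± 6.54 and 43.5 ± 6.83 RPM at chr14:67104501-67145500 (log2 fold change 0.18, SE 0.13, and 0.07 to 0.32 when 1 library was left out) and 22.6 ± 3.84 and 23.3 ± 2.86 RPM at chr14:67074501-67096500 (log2 fold change 0.05, SE 0.13).

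At Ebf3 both marks lay over the start at both ages. H3K27me3 at chr7:137298001-137373000, 75.0 kb, held 91.0, 106 and 109 RPM in young replicates 1 to 3 and 96.2, 81.3 and 78.8 RPM in old replicates 1 to 3. Old replicates 2 and 3 were below all young libraries and old replicate 1 was among them. The means were 102 ± 9.43 and 85.4 ± 9.39 RPM, a log2 fold change of -0.25 (SE 0.10, adjusted p = 0.232), and it was the only H3K27me3 region to touch the gene body (adjusted p = 0.219 over gene bodies), although just 16.4 kb of it lay within the body and the rest lay upstream. H3K27ac at chr7:137299501-137315000, 15.5 kb over the same start, held 13.9, 18.5 and 15.95 RPM in the young and 15.1, 22.0 and 15.3 RPM in the old libraries. Its groups overlapped (log2 fold change 0.10, SE 0.16, adjusted p = 0.888), and old replicate 2 was again the highest.

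Summed over the Ebf3 body, H3K27ac was 27.5 ± 2.35 and 30.4 ± 9.48 RPM (log2 fold change 0.10, SE 0.14, adjusted p = 0.872), and -0.14 without old replicate 2. A region over an inner start of the gene, chr7:137266001-137269000, held 3.18 ± 0.265 and 4.13 ± 1.89 RPM (log2 fold change 0.28, SE 0.31). The other regions named for their p-values were short. H3K27ac at chr7:137244501-137245500 was 1.49 ± 0.988 and 0.452 ± 0.287 RPM (log2 fold change -1.25, SE 0.59, adjusted p = 0.499, and -0.81 without young replicate 3), at chr7:137047501-137050000 it was 2.92 ± 1.90 and 4.22 ± 0.248 RPM (0.65, SE 0.33, adjusted p = 0.539, and from 0.36 to 1.11 when 1 library was left out), and H3K27me3 at chr7:137503001-137505000, listed for young cells only, was 1.55 ± 0.358 and 0.574 ± 0.464 RPM (-1.25, SE 0.40, adjusted p = 0.146). The densest H3K27ac region, chr7:137409001-137412000 at 9430038I01Rik, held 5.35 ± 0.616 and 4.74 ± 1.40 RPM.

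Ebf4 had H3K27me3 over its start and no H3K27ac there. The region over the start, chr2:130292001-130320000, held 34.6, 33.0 and 30.6 RPM in young replicates 1 to 3 and 31.8, 27.6 and 26.2 RPM in old replicates 1 to 3, with old replicate 1 inside the young range (log2 fold change -0.20, SE 0.11, adjusted p = 0.427). Further in, the next region, chr2:130322501-130389500, was the densest H3K27me3 region of all 4 genes at 1.54 RPM per kb, denser than 97.1% of H3K27me3 regions. It held 107, 108 and 116 RPM in the young and 105, 98.4 and 84.0 RPM in the old libraries. Here all old values were below all young values, by a log2 fold change of -0.21 (SE 0.09, adjusted p = 0.311). The gene body sums of 143 ± 2.73 and 124 ± 13.5 RPM did not overlap either (log2 fold change -0.21, SE 0.09, adjusted p = 0.247), as in 15.9% of all H3K27me3 gene bodies in this direction. Without old replicate 3, the lowest library, the values were -0.11 for the region and -0.12 for the body.

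H3K27ac at Ebf4 was scarce. The 1 body region, chr2:130350001-130351500, held 0.980, 1.15 and 2.47 RPM in young and 1.20, 3.93 and 1.78 RPM in old replicates 1 to 3, with as few as 4 reads in a library (log2 fold change 0.46, SE 0.44, adjusted p = 0.791). As the body sum, it ranged from 0.03 to 0.81 when 1 library was left out, the least without old replicate 2. Nearest to the start, chr2:130290501-130292000 held 1.38 ± 0.478 and 1.49 ± 0.758 RPM. The other named regions lay at neighbouring genes. Downstream, chr2:130515501-130532000 was higher in old MSCs without overlap, at 11.7 ± 1.20 and 14.2 ± 1.67 RPM (log2 fold change 0.27, SE 0.17, adjusted p = 0.642). At Nop56 and Idh3b, chr2:130273001-130285500 held 13.7 ± 1.41 and 12.1 ± 2.11 RPM (log2 fold change -0.19, SE 0.17, adjusted p = 0.784), and at Snrpb, chr2:130165001-130180500, the densest, held 21.0 ± 1.73 and 20.9 ± 2.22 RPM.

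**Figure D4:**
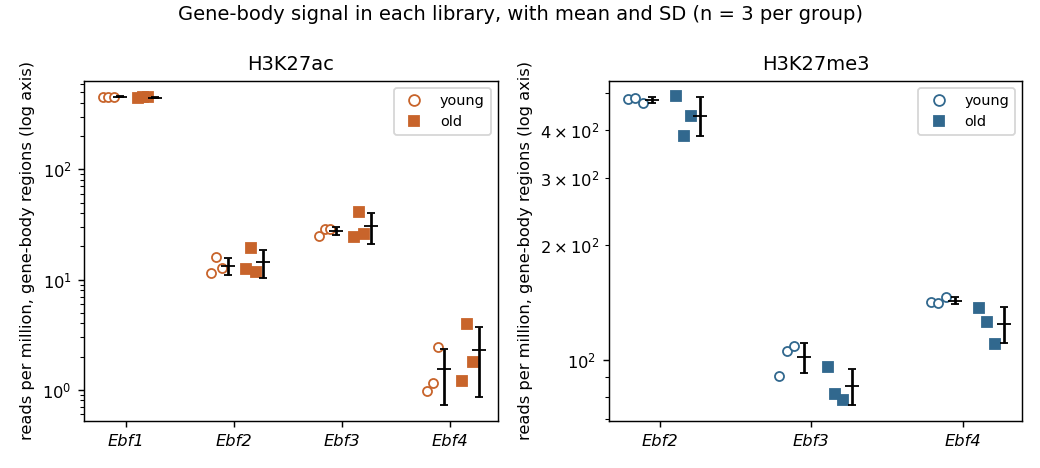
Summed signal of the gene-body regions of each Ebf gene in each library (RPM, logarithmic axis), for H3K27ac (left) and H3K27me3 (right, where Ebf1 has no region), with young libraries as open circles, old libraries as filled squares, and mean and SD in black (n = 3). Ebf1 holds about the same H3K27ac in all 6 libraries, at means of 455 and 449 RPM, and only for H3K27me3 of Ebf4 do young and old libraries not overlap.

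Of the 7 gene-body comparisons, 4 for H3K27ac and 3 for H3K27me3, none passed the test, against 0.565% of H3K27ac bodies and 0.645% of H3K27me3 bodies in the tables. Over the whole windows, an exact two-sided permutation test of the log2 sums, which with 3 libraries per group cannot give a p below 0.10, was run 8 times. The exact p was 0.10, the smallest possible, for both marks at Ebf1 (log2 difference -0.07 for H3K27ac and 0.20 for H3K27me3, adjusted p = 0.40 each), the groups being separate in both. On the signal as deposited the exact p was 0.20 and 0.60 and the differences were -0.19 and 0.07, and with flanks of 50 kb they were -0.02 (exact p = 0.20) and 0.59 (exact p = 0.10). Without old replicate 2 the H3K27me3 difference was 0.12. The other 6 exact p-values were between 0.20 and 1.0. By position, the summed H3K27me3 upstream of Ebf4 was higher in old MSCs without overlap, at 92.9 ± 4.85 and 102 ± 4.72 RPM, and that downstream of Ebf3 was lower without overlap, at 53.6 ± 0.394 and 51.6 ± 0.625 RPM, while none of the single regions in either place was called.

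The ratio of the marks over a gene body was taken per replicate number, since the cells of a sample were divided between the antibodies. It was taken on the signal as deposited, without scaling between libraries, and so differs from the ratio of the scaled body sums given above. It is a description, because the tables were made separately and regions were counted whole, so that 0 does not mark equal amounts of the marks. The log2 ratio of H3K27ac to H3K27me3 was -5.26, -5.15 and -5.15 at Ebf2 in young replicates 1 to 3 and -5.43, -4.40 and -5.01 in old replicates 1 to 3. At Ebf3 it was -1.73, -2.09 and -1.84 in young and -2.12, -1.05 and -1.42 in old replicates. At Ebf4 it was -7.03, -7.15 and -5.82 in young and -6.96, -5.07 and -5.75 in old replicates. In all 3 genes the groups overlapped, and old replicate 2 had the highest ratio and old replicate 1 the lowest of the old libraries. Ebf1 had no H3K27me3 region in its body and hence no ratio.

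**Figure D5:**
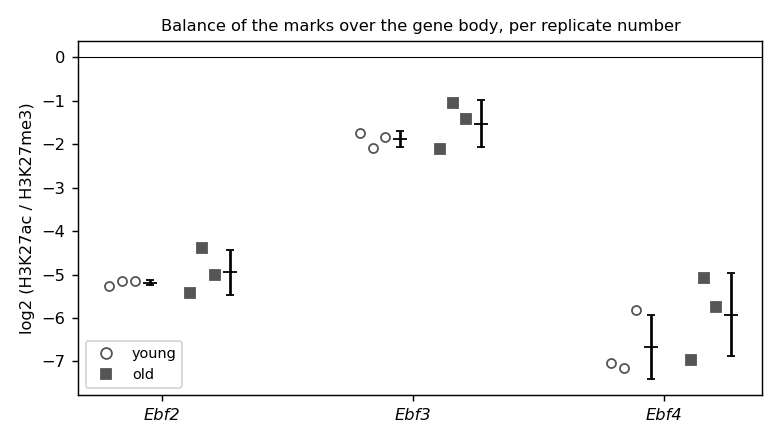
Log2 ratio of H3K27ac to H3K27me3 in gene-body regions (vertical axis) for the 3 Ebf genes with both marks, per replicate number, with young libraries as open circles, old libraries as filled squares, and mean and SD in black (n = 3). The ratios use the signal as deposited, without scaling between libraries. The young and old values overlap in each gene. The means over the 6 replicates are -5.07 for Ebf2, -1.71 for Ebf3 and -6.30 for Ebf4. Old replicate 2 is the highest of the old values in each gene.

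Genes whose body signal was most like that of a member were found among 3392 genes with both marks, by Pearson's r over 12 libraries after centring within each mark. They were Ppfibp2 (r = 0.951), Eva1c (0.931) and Bdh2 (0.927) for Ebf2, Psmd5 (0.922), Pls1 (0.912) and Deptor (0.886) for Ebf3, and Rab11fip1 (0.990), Entpd1 (0.937) and Rgs10 (0.913) for Ebf4. The points share libraries and their depth, and the r values describe likeness in these 12 libraries. For Ebf4 the H3K27ac points came from 1 region of 1.5 kb, at 0.980 to 3.93 RPM and as few as 4 reads in a library. Its H3K27me3 points varied less, at 110 to 146 RPM, so these r values rest largely on few reads.

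Other genes of EBF pathways were read from fixed lists, by regions over the gene body and 10 kb on each side. Of the partners and antagonists, Zfp423 and Zfp521, zinc finger proteins that bind EBF factors, and Tcf3, which acts with Ebf1 in B cell precursors, had 14 H3K27ac and 9 H3K27me3 regions, of which none was called. All 3 had H3K27ac over a start, and Zfp423 had H3K27me3 over a start as well. All 8 H3K27me3 regions of Zfp423 were lower in old MSCs, where 51.4% of all H3K27me3 regions were lower, with a log2 fold change of -0.90 (SE 0.36, adjusted p = 0.256) for the one with the smallest p.

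Of 9 stromal and adipocyte genes, 8 had H3K27ac over a start, among them Cxcl12 and Kitl, the niche factors, and Pparg and Cebpa, the regulators of fat cell formation. H3K27me3 also lay over a start of Kitl and of Lepr, and over a start of Prdm16, the gene without H3K27ac there. None of the 24 H3K27ac regions of the listed genes was called. Of 31 H3K27me3 regions 6 were called (0.488% of all H3K27me3 regions were), all lower in old MSCs and all at Prdm16, the coregulator of brown fat that acts with Ebf2. There 20 of 21 regions were lower, against 51.4% of all H3K27me3 regions, and that with the smallest p fell by 0.70 on the log2 scale (SE 0.12, adjusted p = 0.0157). These regions are neighbours at 1 gene and not independent, and other settings are not given for them. Calls in the whole H3K27me3 table, 137 in the main fit, were 12, 17 and 10 without young replicates 1, 2 and 3. They were 181, 313 and 180 without old replicates 1, 2 and 3. In the B-lineage list, which includes known targets of Ebf1, 0 of 7 H3K27ac regions and 0 of 6 H3K27me3 regions were called. H3K27me3 lay over a start of Pax5, Cd79b, Igll1, Blk and Rag1, among others, and H3K27ac only over that of Vpreb1, so these genes did not share the H3K27ac state of Ebf1 itself.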

How the data were processed

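CUT&RUN libraries of H3K27ac and H3K27me3 from MSCs of young and old mice were grouped by their labels, 3 per mark and age. The submitters' processing notes name Bowtie2, Picard and the builds mm10 and GRCm38, without versions, and the peak caller is not given in the sources used here. The authors deposited 1 table per mark with the signal of each region in each library. The tables are named RPKM, but the deposited signal is not divided by region length. In all columns 100% of values were whole multiples of the value of 1 read at a constant length of 0.5 kb (tolerance 0.001 reads), which gave whole reads and library totals, and RPM is the signal times 0.5. The publication supplied with the series does not report these libraries and served for style only.

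Columns were scaled with RLE size factors (the median ratio to a reference), so that a shift shared by most regions is removed. For H3K27me3 the factors were 1.02 to 1.06 in young and 0.92 to 0.98 in old libraries, so the scaling went with age. Without scaling, limma called 774 H3K27me3 and 105 H3K27ac regions. Log2 of the scaled signal plus 0.5 (0.25 RPM) was fitted with limma 3.58.1 (R 4.3.3), with a variance trend and robust moderation, two-sided, and p-values were adjusted by Benjamini-Hochberg over all regions, or over all gene bodies with a region. On this scale changes of low regions are understated. No low region was removed. The recovered reads were tested with edgeR 4.0.16, which called 96 H3K27ac and 394 H3K27me3 regions in the tables against 26 and 137 with limma, and with DESeq2 1.42.0, which called 6 and 87. Sums over windows were compared by exact permutation tests (scipy 1.17.1). The limma fit was also run on simulated counts with changes put in. The outcome is not reported here, so the power to call a change at this depth is not given. Gene models were GENCODE vM21 basic, of which all transcript starts were used, and 0 columns of samples were left out. The labels gave no batch or date. Reads from the yeast DNA added to the samples were not used here. Single results of some listed genes are not reported here.

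Named regions were, per gene and mark, the region over a start (or the nearest one), called regions, the 2 with the smallest p and the densest. The members, lists and rules were chosen with earlier results of these data known, and the sums downstream of Ebf1, of the regions beyond the window and of other genes' flanks were chosen after values were seen.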

Additional observations from a re-analysis of the deposited data

How the results depend on the processing

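Of 628 values recomputed under other settings, 559 were classed as unchanged. Among these were 15 counts of calls and 3 mark ratios, and the rest kept their direction and their side of the threshold. The ratios were recomputed only without regions over another start. The gene bodies held no such region, so the ratios could not change. Settings such as the replicate block and limma without moderation leave a fold change as it is and alter only its p. The number unchanged therefore overstates how far the results were tried. The 37 that reversed were of regions or sums that had not been called. In 10 cases an uncalled region passed the threshold, and in 7 the called H3K27me3 region lost its call. The other 15 were counts of calls that moved. The number of Ebf regions called for H3K27ac was 1 on the signal as deposited, in edgeR, with the replicate block and with a pseudocount of 2, and 0 to 1 when a library was left out. For H3K27me3 it was 2 in edgeR, with the replicate block and with a pseudocount of 2, 0 in limma without trend and robust moderation and with a pseudocount of 0.1, and 0 to 2 when a library was left out. Whether equal replicate numbers paired the samples is not known. The correlations of their deviations were between -0.087 and 0.069, and not every sample was closest to its own number. With 3 libraries per group such correlations cannot settle the question. The block raised the calls in the tables to 81 and 309. On the signal as deposited the log2 difference turned to -0.11 for the H3K27ac domain over the Ebf1 start, to -0.091 and -0.076 for the densest H3K27me3 regions of Ebf1 and Ebf2, to -0.013 for H3K27ac over the main Ebf3 start, to -0.057 for the H3K27ac region nearest the Ebf4 start, to -0.025 and -0.017 for body H3K27ac of Ebf2 and Ebf3, and to -0.11, -0.059 and -0.11 for window H3K27ac of Ebf2, Ebf3 and Ebf4. The Ebf2 window was at -0.032 for H3K27ac without regions over other starts, and the Ebf4 window at -0.0032 with TMM factors and -0.093 with flanks of 50 kb. With 1 library left out, H3K27ac regions ranged from -0.012 to 0.031 (Ebf1 start), -0.026 to 0.44 and -0.32 to 0.031 (Ebf2 start and densest), -0.055 to 0.50 and -0.071 to 0.21 (Ebf3 inner and main start), and -0.27 to 0.37 and -0.077 to 0.074 (Ebf4 nearest and densest). H3K27me3 regions ranged from -0.062 to 0.057 and -0.041 to 0.087 (Ebf1 nearest and densest) and -0.093 to 0.15 (Ebf2 densest). Body H3K27ac ranged from -0.13 to 0.22 (Ebf2) and -0.14 to 0.25 (Ebf3), and window H3K27ac from -0.032 to 0.054 (Ebf2), -0.092 to 0.20 (Ebf3) and -0.017 to 0.034 (Ebf4). The cause was not tested. The sums downstream of Ebf1, whose alternatives were chosen after seeing the data, lay between -0.96 and -0.52 (H3K27ac) and between 0.40 and 0.66 (H3K27me3) with 1 library left out, and were -0.91 and 0.44 on the signal as deposited. Depth limited the short regions, in which 1 library could hold 0 to 5 reads.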
